A study of Sus scrofa with 6 samples.

Results

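Pig embryos that had been injected with an antibody were compared with embryos that had not been injected, by the transcripts each held about a day after they were made. The comparison used 5 of the 6 arrays of the series: all 4 arrays of injected embryos, grouped whichever antibody they had received, and the 1 array of non-injected embryos. The remaining array, of the donor cells, was used only as a reference level. All were nuclear transfer (NT) embryos: a cultured cell supplies the nucleus and an oocyte the cytoplasm. The donor cells were cultured fibroblasts established from an adult Meishan pig, and the recipient oocytes came from a slaughterhouse.

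Embryos of the anti-DJ1 group (n = 2 arrays) had received an antibody against DJ-1 (the product of PARK7, a protein that senses oxidation), and those of the IgG group (n = 2) had received IgG. Embryos of the non-injected group (n = 1) had received neither. Each array held RNA from a pool of 23 to 26 embryos taken 28 h after NT, when many had just become 2-cell embryos. Trial 1 held 1 array of each of these groups, and trial 2 a further anti-DJ1 and a further IgG array, made from different embryos, with no non-injected array beside them. The sources used here give neither the time nor the amount of injection, and every injected pool had received both the injection and an antibody, so the 2 cannot be told apart. Because each sample is a pool, a smaller number of embryos at a stage and less transcript per embryo cannot be told apart either.

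Microinjection pierces the plasma membrane of the egg or embryo, which must be resealed from within; the repair machinery is driven by calcium and includes calpains, annexins and membrane from vesicles. At this age a mammalian embryo still lives largely on messenger RNA stored in the oocyte, which is adenylated, translated and cleared on a schedule, and in the pig the embryo's own genome becomes active mainly at a later cleavage stage. A difference in transcript level can therefore lie in stored RNA as well as in newly made RNA.

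The labelled sample type was checked against marker genes. All 11 oocyte and early embryo markers measured (of 18 listed) lay above background on each of the 5 embryo arrays. Their summed signal was 100634 to 139987 on the 4 injected arrays, 185901 on the non-injected array and 1463 on the donor cell array. The 10 fibroblast markers measured summed to 2797 to 3317 on injected arrays, 3536 on the non-injected array and 95162 on the donor cell array. Of these, 7 or 8 lay above background on injected arrays and 7 on the non-injected array. POSTN and LUM lay above it on none, but also not in donor cells (22.7 and 1.71, background 34.3). DCN was higher in embryos (54.7 to 111) than in donor cells (5.58). Of the 12 cumulus and granulosa markers, which would mark cells that surround the oocyte, 5 or 6 lay above background on injected arrays and 4 on the non-injected array, and their sums were 1732 to 2348 and 1842. FSHR, STAR, CYP11A1, TNFAIP6, PTX3 and KRT18 of that list were at or below background on all 5 arrays. INHBA (975 to 1495), FST (323 to 499.7), KRT8 and INHA were above it on all 5. Of the 11 epithelial, endothelial and blood markers 7 or 8 lay above background on injected arrays and 7 on the non-injected array, with sums of 9013 to 11270 and 10950. CDH5 was below background on all 5 arrays, while EPCAM (3734 to 5574), CDH1 (3057 to 3694) and HBB (982 to 2045) were above it on all 5.

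Signals are those of MAS5, the array maker's summary method, and the background level of an array was taken as its highest signal among 17 Tag control probe sets. This level was 47.0 on the non-injected array and 21.4 to 45.7 on the injected arrays. The arrays also differed in their technical controls. For EF1A, the ratio of 3′ to 5′ signal, a measure that grows with shorter labelled RNA, was 30.0 on the non-injected array, 24.2 and 23.9 on the injected arrays of trial 1, and 8.20 and 9.34 on those of trial 2. The same ratio for actin was 665, then 265 and 258, then 45.0 and 68.4. The median hybridisation control signal was 6338 on the non-injected array, 3147 and 2937 on the injected arrays of trial 1, and 1236 and 1336 on those of trial 2. The part of these differences in the results below was not tested.

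Of 14399 probe sets tested, 197 (1.37%) differed between injected and non-injected embryos at an adjusted p under 0.05 in limma: 150 (1.04%) were higher and 47 (0.326%) lower in injected embryos. They covered 90 named genes, 71 with a higher and 19 with a lower probe set. The rises were large, with 125 of the 150 at least 2-fold. Their median signal was 44.2 on the non-injected array and 191 in the injected embryos of trial 1. By the mean over the 5 arrays they were spread across signal levels. The dimmest 25% of probe sets (3599) held 38 rises and the next 25% (3600) held 48. The 50 to 75% band (3600) held 28 and the 75 to 90% band (2160) held 28. The falls were mostly small and lay more often in bright transcripts, with 15 of the 47 at least 2-fold and a median non-injected signal of 10662. The 4 bands just named held 1, 5, 6 and 7 falls, from the dimmest up. The 90 to 95% band held 3, the 95 to 99% band 8 and the brightest 1% 17. The median non-injected signal over all tested probe sets was 201. A low non-injected signal itself helps make a probe set a rise, so part of the contrast in that signal is built in. A further part of the contrast is set by the filter on dim probe sets, which used the mean over 4 injected arrays and 1 non-injected array. It kept dim transcripts that were higher in injected embryos more readily than those that were lower. With both sides weighted equally in that filter, an alternative chosen after the data were seen, 125 probe sets passed, all among the 197, with 87 higher (69.6%) and 38 lower. The model held a term for the trial, so each estimate is the mean of the 2 injected arrays of trial 1 minus the non-injected array, and the test assumes that the single non-injected array varies as the injected arrays do.

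Most probe sets did not pass. Over all 14399 the median log2 change was -0.014, with 48.6% positive. The median 95% confidence interval reached 1.54-fold to either side, from 2.31-fold in the dimmest 25% of probe sets to 1.27-fold in the brightest 25%. All 4 injected arrays lay above the non-injected array at 136 of the 150 rises, with 26.3% of all tested probe sets so placed, and below it at 39 of the 47 falls, with 19.8% of all so placed. The trial 1 arrays and the non-injected array made the calls, so these shares are a description. For the same reason each estimate stays as it is in fits without a trial 2 array, here and below. Such fits change only the spread and its degrees of freedom. Under quantile normalization 98 probe sets passed, all of them among the 197, with 87 higher (88.8%) and 11 lower, where the deposited scaling gave 76.1% higher. Without the trial term, without the filter on dim probe sets or without the mean-variance trend, 0 passed in limma, with 1081, 3874 and 2192 at an unadjusted p under 0.05. The fit reported had 2690 such probe sets, where 719.95 would be expected if the non-injected array varied only as injected arrays of the same trial do. The spread of the fit comes from the anti-DJ1 and IgG arrays within each trial, and the non-injected array adds nothing to it. The excess therefore cannot tell injection apart from a difference particular to that 1 pool or array. Leaving out a trial 1 array raised the count, to 809 for anti-DJ1 replicate 1 and 772 for IgG replicate 1. Leaving out a trial 2 array gave 157 for anti-DJ1 replicate 2 and 161 for IgG replicate 2, of which 68 and 72 were higher.

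**Figure D1:**
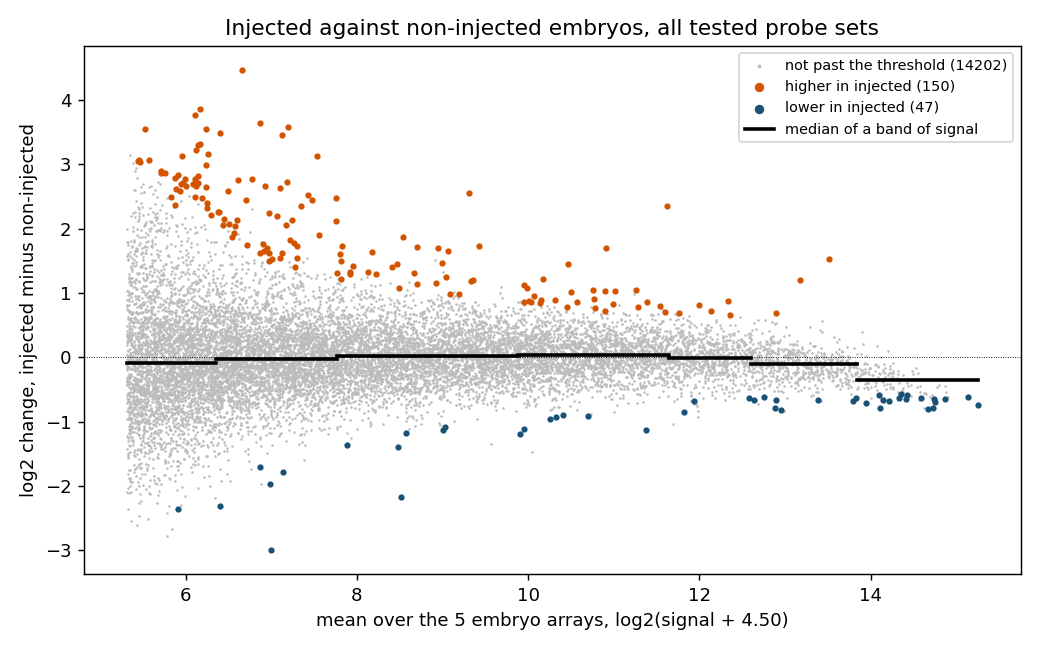
Each point is 1 of the 14399 tested probe sets, with the mean over the 5 embryo arrays of log2(signal + 4.50) on the x axis and the log2 change, injected minus non-injected, on the y axis. The 150 rises (orange) spread over all bands of signal but the brightest 1%, and the 47 falls (blue) crowd at the bright end. The median of each band (black) stays near 0 until the brightest 1%, where it is -0.35.

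The largest rises were in genes below background in non-injected embryos and above it in each injected pool. They included YBEY and MRPL4 of mitochondrial RNA and translation, the kinase gene MARK3, the phosphatase gene PHOSPHO1, the nuclear pore gene NUP133 and ACVR1, a receptor for BMP and activin-type ligands. For all 15 genes of this group the non-injected signal lay between 2.51 and 26.4, under the background of 47.0, so the fold is only bounded and the log2 changes give no order among them. The bound sets the mean of the injected arrays of trial 1 against the background of the non-injected array, and ran from at least 1.26-fold to at least 5.64-fold. Of the 150 rises 76 (50.7%) had a non-injected signal at or below background, against 11.4% of all tested probe sets. That signal also helps make a probe set a rise, so the share is a description. With the filter weighted equally, 10 of the 15 genes were too dim to be tested, and the 5 tested, YBEY, MRPL4, MARK3, PHOSPHO1 and TBRG4, passed. Signals are given below in the order anti-DJ1 and IgG of trial 1, anti-DJ1 and IgG of trial 2, then non-injected.

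YBEY, which matures ribosomal RNA in mitochondria, had signals of 263, 267, 328 and 286 against 26.4, at least 5.64-fold higher (log2 change 3.13 ± 0.26 SE, adjusted p = 0.00246). MRPL4, a protein of the large mitochondrial ribosomal subunit, had signals of 140.3, 194, 474 and 345 against 9.63, at least 3.50-fold higher (3.58 ± 0.33, adjusted p = 0.00359). TBRG4, which regulates mitochondrial RNA, had signals of 146, 117, 137 and 171 against 15.5, at least 2.77-fold higher (2.75 ± 0.36, adjusted p = 0.0172). In these 3 genes of mitochondrial RNA and translation every injected array stood above every background level. Likewise MRPL14 of the large mitochondrial subunit, had signals of 56.9, 61.3, 169 and 121 against 4.37, at least 1.26-fold higher (2.84 ± 0.47, adjusted p = 0.0300), with both trial 2 arrays well above both trial 1 arrays. MRPL4 was also higher in trial 2 than in trial 1 (log2 difference 1.27, adjusted p = 0.00685), as was MRPL14 (1.22, adjusted p = 0.0392). Trial 2 arrays do not enter the estimates against the non-injected array, so leaving 1 out changes only the spread. MRPL14 did not pass without the trial 2 anti-DJ1 array (adjusted p = 0.0842) or the trial 2 IgG array (0.0735).

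Receptors and membrane proteins formed the next set. ACVR1 had signals of 212, 132, 194 and 223 against 3.26, at least 3.55-fold higher (log2 change 4.47 ± 0.39, adjusted p = 0.00246). IFNAR2, a subunit of the type I interferon receptor, had signals of 98.6, 96.4, 118 and 140.2 against 5.70, at least 2.07-fold higher (3.32 ± 0.41, adjusted p = 0.0132). CD83, a surface protein known from mature dendritic cells, had signals of 93.8, 71.4, 113 and 88.3 against 8.15, at least 1.74-fold higher (2.77 ± 0.46, adjusted p = 0.0300). The 4 injected arrays overlapped between trials in ACVR1 and CD83, and no injected array came near the non-injected value. VCAM1, an adhesion molecule of endothelium and stroma, had signals of 98.5, 87.0, 94.2 and 135 against 14.95, at least 1.97-fold higher (2.32 ± 0.42, adjusted p = 0.0357). Its donor cell signal was 14364. CD83 and VCAM1 did not pass without anti-DJ1 replicate 2 (adjusted p = 0.0688 and 0.0643) or leaving out IgG replicate 2 (0.0645 and 0.0737).

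Named genes of the cytoskeleton and of the nucleus with a bounded rise were MARK3, MYO10, FSD1, NUP133, ZCCHC8 and U2AF2. Of these, U2AF2 is outside the 15 largest rises, and with the filter weighted equally it was too dim to be tested. MARK3, a kinase that loosens microtubule-binding proteins, had signals of 245, 209, 215 and 212 against 16.6, at least 4.81-fold higher (log2 change 3.45 ± 0.29, adjusted p = 0.00246), and the 4 injected arrays lay close together. MYO10, an unconventional myosin of filopodia, had signals of 76.5, 88.2, 101 and 115 against 5.40, at least 1.75-fold higher (3.13 ± 0.45, adjusted p = 0.0192). FSD1, a microtubule-associated protein, had signals of 56.7, 75.1, 82.9 and 95.5 against 4.86, at least 1.39-fold higher (2.90 ± 0.51, adjusted p = 0.0335). In the nucleus, NUP133, a scaffold protein of the nuclear pore, had signals of 89.97, 92.7, 170.2 and 137 against 2.51, at least 1.94-fold higher (3.77 ± 0.43, adjusted p = 0.00799). ZCCHC8, part of the complex that hands nuclear RNA to the exosome, had signals of 51.4, 68.7, 64.6 and 65.7 against 3.18, at least 1.26-fold higher (3.06 ± 0.57, adjusted p = 0.0396). U2AF2, which recognises the 3′ splice site, had signals of 79.8, 96.5, 70.8 and 94.6 against 9.70, at least 1.87-fold higher (2.70 ± 0.47, adjusted p = 0.0326). Without anti-DJ1 replicate 2 or IgG replicate 2, MYO10 (adjusted p = 0.0524 and 0.0546), FSD1 (0.0822 and 0.0883), ZCCHC8 (0.0990 and 0.0977) and U2AF2 (0.0641 and 0.0716) did not pass, and ZCCHC8 did not pass under quantile normalization (0.0533).

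PHOSPHO1, a phosphatase of phosphocholine and phosphoethanolamine known from bone mineralisation, had signals of 144, 235, 191 and 204 against 10.6, at least 3.91-fold higher (log2 change 3.64 ± 0.37, adjusted p = 0.00550). NSFL1C, a cofactor of the p97 ATPase in membrane fusion and protein turnover, had signals of 99.2, 111, 324 and 329 against 18.7, at least 2.24-fold higher (2.24 ± 0.31, adjusted p = 0.0172). It was higher again in trial 2, by 1.60 (adjusted p = 0.00147). The remaining genes of the largest rises were LOC100522220, with signals of 99.1, 91.1, 170.4 and 106 against 8.03 (at least 2.02-fold, adjusted p = 0.0192), and C7H14orf119, with 78.4, 76.6, 164 and 110.5 against 7.51 (at least 1.65-fold, adjusted p = 0.0281). C7H14orf119 did not pass without the trial 2 anti-DJ1 array (adjusted p = 0.0643) or the trial 2 IgG array (0.0567). With trial 1 arrays only, NSFL1C, LOC100522220 and C7H14orf119 did not pass.

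**Figure D2:**
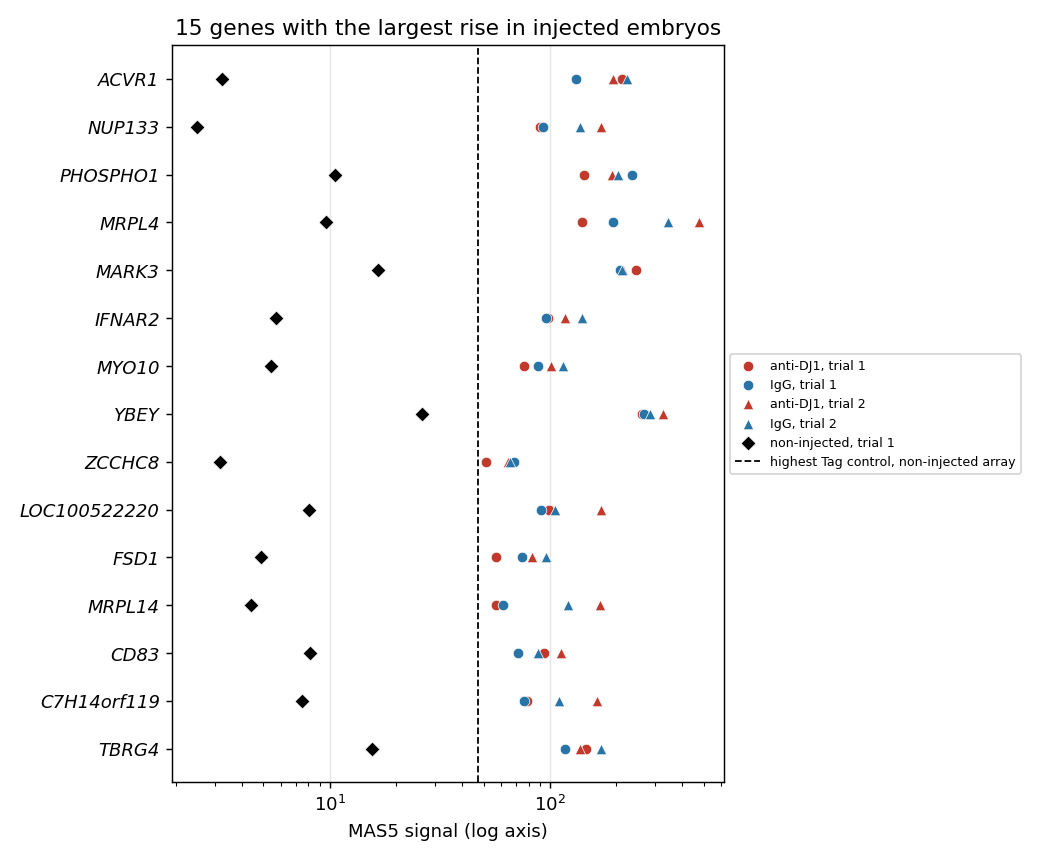
MAS5 signal on a log axis of the 15 named genes with the largest rise, 1 row per gene, with the injected arrays of trial 1 as circles, those of trial 2 as triangles and the non-injected array as a diamond. Every non-injected value lies left of the dashed background line at 47.0, between 2.51 and 26.4, and every injected value lies right of it, from 51.4 for ZCCHC8 to 474 for MRPL4. Each gene is shown by its brightest probe set past the threshold.

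Other probe sets of the same genes mostly did not pass. Of the genes with a probe set past the threshold, 49 had further tested probe sets, 79 in all beside the brightest called one of each gene. Of the 79, 47 had the same sign as that one and 4 passed, in ZFX, KIAA1551, USP9X and CLTC. Their median was 0.14 in its direction, against 1.501 for the called ones. For ACVR1 a further probe set with a mean signal of 576 changed by 0.36 (adjusted p = 0.3303). For NUP133 the other 3 changed by 1.18, 0.76 and 0.12 (adjusted p = 0.0524, 0.129 and 0.613), the last being the brightest at 9092. For MARK3 they changed by 0.14 and -0.32, at mean signals of 396 and 2986 against 180 for the called one. Those of ZCCHC8 changed by -0.27 and -0.015, at 471 and 222 against 50.7. The other probe set of C7H14orf119 changed by -0.0058, at 1332 against 87.5. That of YBEY, dimmer at 45.3 against 234, changed by -0.079. Probe sets of a gene can read different transcript ends or isoforms, and which applies here was not tested.

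A further group rose from a level that was measured on both sides. CCNA2, cyclin A2, which drives DNA replication and entry into mitosis, had signals of 195, 325, 337 and 337 in injected embryos against 73.1 (log2 change 1.73 ± 0.31, adjusted p = 0.0357). SRSF4, a serine- and arginine-rich splicing factor, had signals of 2388, 2729.5, 1872 and 2732 against 787 (1.69 ± 0.22, adjusted p = 0.0150). GLRX3, a glutaredoxin that handles iron-sulphur clusters, had signals of 377, 368, 308 and 369 against 116 (1.65 ± 0.23, adjusted p = 0.0190). In each of these 3 genes the lowest injected array stood more than 2-fold above the non-injected array. CCNA2 did not pass without the trial 2 anti-DJ1 array (adjusted p = 0.0643), the trial 2 IgG array (0.0645) or under quantile normalization (0.0511).

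Stress and redox genes came next. HSPH1, a large heat shock protein that recharges HSP70, had signals of 2908, 3265, 2377 and 2610.2 against 1489 (log2 change 1.05 ± 0.15, adjusted p = 0.0192). TXNIP, the inhibitor of thioredoxin, had signals of 1499, 1706, 1607 and 1921 against 789 (1.01 ± 0.18, adjusted p = 0.0326), and thioredoxin itself, TXN, is among the falls below. XRCC4, a ligase cofactor that joins broken DNA ends, had signals of 3223, 3667, 2419.5 and 2583 against 1887 (0.86 ± 0.15, adjusted p = 0.0321), and trial 2 was lower than trial 1 by 0.46 (adjusted p = 0.0171). ATG12, which tags membranes for autophagy, had signals of 2903, 2546, 3071 and 2648 against 1580.2 (0.78 ± 0.16, adjusted p = 0.0495). Of these 4, HSPH1 alone passed under quantile normalization (adjusted p = 0.0353, with 0.0656 for TXNIP, 0.0533 for XRCC4 and 0.0763 for ATG12). ATG12 also missed the threshold without either trial 2 array, anti-DJ1 (0.0552) or IgG (0.0535).

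Other rises measured on both sides included EEF1E1, EIF4A2, USP9X, CLDN12, CLTC and HNRNPD. EEF1E1, a member of the tRNA synthetase complex, had signals of 248, 199, 139 and 165 against 73.2 (log2 change 1.54 ± 0.29, adjusted p = 0.0421). EIF4A2, an RNA helicase of translation initiation, had signals of 4676, 5198, 4793 and 5202 against 2991 (0.72 ± 0.13, adjusted p = 0.0396). USP9X, a deubiquitinase, had signals of 3536, 3553, 3456 and 3035 against 2169 (0.71 ± 0.14, adjusted p = 0.0482). The 4 injected values of EIF4A2 and of this USP9X probe set lay close together in both trials. A dimmer USP9X probe set that also passed had signals of 1617, 1862, 569 and 194 against 290.2 (2.56 ± 0.47, adjusted p = 0.0367), so that 1 array of trial 2 lay below the non-injected array. CLDN12, a claudin of tight junctions, had signals of 373, 443, 1131 and 1207 against 144 (1.47 ± 0.20, adjusted p = 0.0172), with trial 2 higher again by 1.51 (adjusted p = 2.76e-04). CLTC, the clathrin heavy chain, had signals of 4547, 4153, 3149 and 3157 against 2681 (0.70 ± 0.13, adjusted p = 0.0432). A dim CLTC probe set that also passed had signals of 58.3, 96.0, 58.7 and 73.5 against 2.26, at least 1.59-fold higher (3.56 ± 0.58, adjusted p = 0.0287). HNRNPD, which binds AU-rich ends of messenger RNA, had signals of 14642 and 14358 in trial 1 against 6271, while trial 2 gave 6035 and 8485, on either side of it (1.21 ± 0.18, adjusted p = 0.0192; trial difference -1.02, adjusted p = 8.79e-04).

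Of these 6 genes, 4 did not pass under quantile normalization, with log2 changes close to those above: EEF1E1 at 1.59 (adjusted p = 0.0533), EIF4A2 at 0.66 (0.0656), USP9X at 0.64 (0.0763) and CLTC at 0.63 (0.0692). CLDN12 (0.0278) and HNRNPD (0.0353) passed. With the filter weighted equally USP9X (0.0592) and CLTC (0.0548) did not pass, nor did ATG12 (0.0609). EEF1E1 did not pass without anti-DJ1 replicate 2 (0.0643) or IgG replicate 2 (0.0651), nor CLTC without anti-DJ1 replicate 1 (0.0525) or anti-DJ1 replicate 2 (0.0509).

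Among the falls that were not tied to the brightest signals, BSG was the largest. BSG, a membrane glycoprotein that escorts lactate transporters to the cell surface, had signals of 50.7 and 25.4 in trial 1 against 319.6 in non-injected embryos (log2 change -2.996 ± 0.40, adjusted p = 0.0172). In trial 2 its signals were 284 and 217, close to the non-injected array, and the trials differed by 2.64 (adjusted p = 4.58e-04). Set against the non-injected array, the trial 2 arrays alone gave -0.36 (adjusted p = 0.291). SLC9A5, a sodium/proton exchanger, had signals of 25.1, 25.6, 70.5 and 71.3 against 148 (-2.36 ± 0.46, adjusted p = 0.0442), and a further probe set changed by 0.098. SCPEP1, a lysosomal carboxypeptidase, had signals of 223, 249, 358 and 444 against 624 (-1.39 ± 0.23, adjusted p = 0.0300). SLC9A5 did not pass without the trial 2 anti-DJ1 array (adjusted p = 0.0894), the trial 2 IgG array (0.0898), under quantile normalization (0.0533) or with the filter weighted equally (0.0587).

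GTPBP4, a nucleolar GTPase of large ribosomal subunit assembly, had signals of 708, 722, 966 and 984 against 1644 (log2 change -1.20 ± 0.16, adjusted p = 0.0172). CAPNS1, the small subunit of the calpains, had signals of 396, 311, 604 and 668 against 751 (-1.09 ± 0.22, adjusted p = 0.0473), and a further probe set changed by 0.36 (adjusted p = 0.528). In both genes, as in BSG, SLC9A5 and SCPEP1, the trial 2 arrays lay between those of trial 1 and the non-injected array. C9H11orf54 behaved otherwise, with 1463, 1668, 1347 and 1292 against 2935 (-0.91 ± 0.16, adjusted p = 0.0326). TXN, the thioredoxin that TXNIP binds, had signals of 3445, 3471, 3736 and 3697 against 5507 (-0.67 ± 0.13, adjusted p = 0.0400), and the 4 injected arrays lay within a narrow range. CAPNS1 did not pass without the trial 2 anti-DJ1 array (adjusted p = 0.0714), the trial 2 IgG array (0.0718), with the filter weighted equally (0.0586) or under quantile normalization (0.0669), where TXN also missed the threshold (0.0656).

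The falls among bright transcripts moved with a shift of all bright signals. In the brightest 1% of tested probe sets (144, with a median signal of 19072) the median log2 change was -0.35, 5.56% were positive and 17 were among the 47 falls, and the median difference from the non-injected array was -0.35 and -0.37 on the 2 arrays of trial 1 and -1.04 and -0.90 on those of trial 2. In the next 4% (576 probe sets) it was -0.11, with 8 falls. After quantile normalization, which gives every array the same spread of signals, these bands had medians of 9.1e-04 and 0.0055, with 0 and 1 falls. The brightest oocyte markers, KPNA7, DNMT1, WEE2 and H1FOO, changed by -0.54, -0.65, -0.66 and -0.37, with none past the threshold by these probe sets. The oocyte and early embryo list summed to 185901 on the non-injected array and 100634 to 139987 on injected arrays. Its member ZP4, also bright with signals of 6671 to 12566, changed by 0.25. GDF9 and BMP15, at lower signals, changed by 0.40 and 0.54. The part of the array scaling in these falls was not tested beyond the quantile setting.

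FDFT1, squalene synthase of the sterol pathway, had signals of 18308, 19079, 11552 and 13418 against 32255 (log2 change -0.79 ± 0.12, adjusted p = 0.0208). RNPS1, a protein of the exon junction complex, had signals of 16544, 18428, 10319 and 10802 against 28379 (-0.70 ± 0.11, adjusted p = 0.0281). NGDN, of small ribosomal subunit processing, had signals of 19403, 19444, 13341 and 16282 against 30938 (-0.67 ± 0.13, adjusted p = 0.0421), and a further probe set with a mean signal of 6832 changed by 0.20 (adjusted p = 0.457). All injected arrays of these 3 genes, by the probe sets that passed, lay below the non-injected array, those of trial 2 furthest. F3, tissue factor, had signals of 23272, 23635, 12883 and 14444 against 36413 (-0.63 ± 0.11, adjusted p = 0.0326). PLEK2, a membrane-associated pleckstrin, had signals of 14853, 13938, 11344 and 12541 against 22319.9 (-0.63 ± 0.11, adjusted p = 0.0352), and IER3, an immediate early gene, 11083, 9912, 8658 and 8839 against 16509 (-0.66 ± 0.12, adjusted p = 0.0344). Under quantile normalization the changes were -0.32 for FDFT1, -0.31 for RNPS1, -0.25 for NGDN, -0.18 for F3, -0.35 for PLEK2 and -0.45 for IER3, and none of these 6 passed (adjusted p from 0.0896 to 0.307). Without IgG replicate 1, PLEK2 (0.0553) and IER3 (0.0590) did not pass.

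HNRNPA2B1, a nuclear RNA-binding protein, had signals of 4445, 4485, 2107 and 1790.3 against 8029 (log2 change -0.85 ± 0.14, adjusted p = 0.0321), and its other probe sets changed by 0.31 and 0.29. The transcript annotated EF1ALPHA, of the translation elongation factor, had signals of 7478, 8089, 5842 and 6381 against 13694 (-0.82 ± 0.12, adjusted p = 0.0208). Its 6 other probe sets changed by -0.46 and -0.23 and by 0.37, 0.57, 0.86 and 0.97, with none past the threshold in limma, so the call rests on 1 probe set of 7. Under quantile normalization HNRNPA2B1 (adjusted p = 0.0533) and EF1ALPHA (0.0518) did not pass. PARK7, the gene of the injected antibody's target, had signals of 446, 522, 1203 and 1272 against 506 (-0.066 ± 0.19, adjusted p = 0.880). It differed between the trials of injected embryos (1.35, adjusted p = 3.14e-04), with both trial 2 arrays above the non-injected array and those of trial 1 on either side of it.

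**Figure D3:**
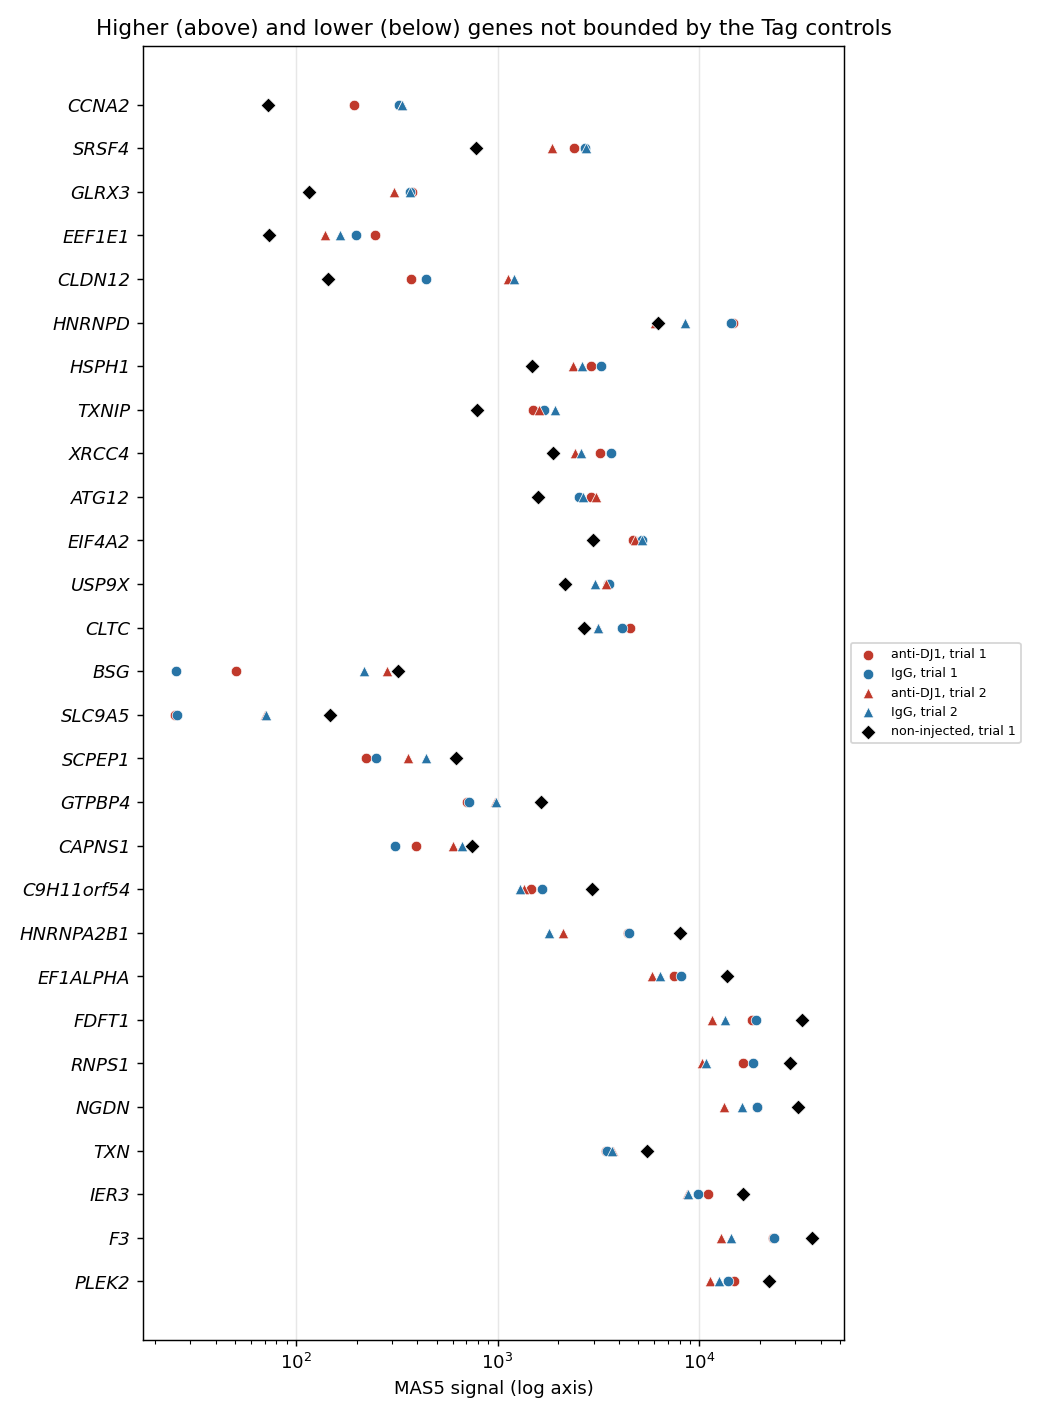
MAS5 signal on a log axis of the named genes whose fold was not bounded by background, with higher genes above and lower genes below, and symbols by antibody and trial. The diamonds of the non-injected array lie left of all injected values for the rises, except for HNRNPD at 6271, and right of them for the falls, from 148 for SLC9A5 to 36413 for F3. The anti-DJ1 value of SLC9A5 in trial 1, 25.1, lies under the background of its array, 33.3.

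The gene lists were set against all named genes, taking 1 probe set per gene. Of 5194 such genes 61 (1.17%) passed, 45 (0.866%) higher and 16 (0.308%) lower, with a median log2 change of -0.031 and 46.7% positive. The lists were small beside this rate, so most held 0 or 1 such gene, and several were known to hold a changed gene from earlier results of these data.

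In RNA processing, 4 of 59 splicing factors and hnRNPs passed: SRSF4, HNRNPD and U2AF2 higher and HNRNPA2B1 lower, with a list median of -0.039. In translation, EIF4A2 and EEF1E1 of 43 genome activation and translation factors passed, both higher (median -0.11), and 0 of 52 cytosolic ribosomal proteins (median -0.13). The ribosomal members with the smallest unadjusted p were RPL29, with 120.3, 127, 202 and 162 against 46.8 (adjusted p = 0.0683), and RPS15, with 64.2, 56.8, 167 and 130.3 against 132 (adjusted p = 0.135). In mitochondria, 4 of 57 genes of the mitochondrial ribosome and translation passed, YBEY, MRPL4, TBRG4 and MRPL14, all higher, while the list median was -0.0091 and 28 of 57 were positive. None of the 52 oxidative phosphorylation genes passed (median -0.022). NDUFB1 of complex I came closest, with 1166, 1239.9, 2388 and 1846 against 2215 (-0.88 ± 0.18, adjusted p = 0.050035).

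In protein quality control, HSPH1 was the 1 of 35 heat shock and folding genes to pass (list median 0.013), NSFL1C the 1 of 19 genes of endoplasmic reticulum stress (-0.0076), USP9X the 1 of 60 of proteasome and ubiquitin (-0.027), and SCPEP1 and ATG12 the lower and the higher of 49 of lysosome and autophagy (-0.092). Among 40 oxidative stress genes GLRX3 and TXNIP rose and TXN fell, with a median of -0.12 and 14 positive. Among 23 immediate early and stress kinase genes IER3 fell (median -0.22). None of 15 apoptosis regulators passed (median -0.028). BCL2L1, which protects mitochondria, had signals of 1127, 1313, 1463 and 1667 against 1812 (-0.57 ± 0.17, adjusted p = 0.115), and CASP6, an executioner caspase, 3854, 3822, 3539.8 and 3743 against 3023 (0.34 ± 0.13, adjusted p = 0.193).

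Cell cycle genes were represented by CCNA2, the 1 of 30 to pass (median -0.098), and the DNA damage response by XRCC4, the 1 of 20 (median 0.036). Of 34 genes of microtubules and spindle none passed (median -0.018). DYNLL2, a light chain of dynein, had signals of 18036, 19521, 12031 and 14720.5 against 29402 (-0.65 ± 0.13, adjusted p = 0.050035). MYO10 was the 1 of 52 actin cytoskeleton genes to pass (median -0.010), and none of 33 genes of the nuclear lamina, pore and import did by its brightest probe set (median 0.042). KPNA7, the oocyte importin, had signals of 37590.2, 35933, 16959.7 and 20693 against 53619 (-0.54 ± 0.12, adjusted p = 0.0602).

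Lists of the cell surface and of wounding are given next, beside the 1.17% of all named genes that passed. Of 34 genes of plasma membrane repair and annexins, CAPNS1 passed, and it was lower (list median -0.097, 12 positive). CLTC was the 1 of 72 genes of vesicle traffic and endosomes to pass (-0.081). Of 32 tight junction and adhesion genes, CLDN12 and VCAM1 rose and BSG fell (median 0.069), and BSG was also the 1 of 21 glycolysis and lactate genes to pass (0.081). None of 35 genes of calcium signalling and egg activation passed (0.036). In that list GNAI1, an inhibitory G protein subunit, had signals of 6042, 6455, 3826 and 3483 against 4266 (adjusted p = 0.0668), with the trial 2 arrays below the non-injected value, and CALM3, a calmodulin gene, 515, 510.2, 618 and 576 against 869 (adjusted p = 0.0706). IFNAR2 was the 1 of 29 genes of interferon, inflammation and antibody sensing to pass (median 0.17). On the non-injected array 8 of the 29 lay at background, against 466 of all 5194 named genes tested.

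Embryo and chromatin lists held 0 genes past the threshold by their brightest probe set: 15 maternal oocyte transcripts (median 0.0048), 41 of chromatin and DNA methylation (-0.021), 19 imprinted genes (-0.079), 8 of pluripotency and early lineage (-0.14) and 17 DJ-1 partners and mitophagy genes (-0.066). WEE2, the oocyte kinase that holds the meiotic arrest, had signals of 28449, 25190.2, 14745 and 18459.9 against 42293 (-0.66 ± 0.14, adjusted p = 0.0534). MBD2, which binds methylated DNA, had signals of 1036, 1210.1, 1887 and 1698 against 1968 (-0.81 ± 0.17, adjusted p = 0.050035). GATA4, a transcription factor of the primitive endoderm, had signals of 467, 403, 1096 and 1368 against 717 (-0.72 ± 0.20, adjusted p = 0.103), and the kinase gene AKT1 649.6, 658, 1706 and 1862 against 1024 (-0.64 ± 0.16, adjusted p = 0.0797). In both, the 2 trials lay on opposite sides of the non-injected array.

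Marker lists of other cells held 0 genes past the threshold: 23 of fibroblast and extracellular matrix (median -0.13), 13 of cumulus and granulosa cells (-0.0010) and 10 of epithelial, endothelial and blood cells (0.089). The fibroblast gene TIMP2, a metalloproteinase inhibitor, had signals of 82.9, 76.9, 59.6 and 52.4 against 16.4 (2.01 ± 0.48, adjusted p = 0.0670), and the steroid enzyme gene HSD3B1 94.5, 113, 112 and 100.1 against 30.1 (1.64 ± 0.37, adjusted p = 0.0602). Both non-injected values were under background.

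**Figure D4:**
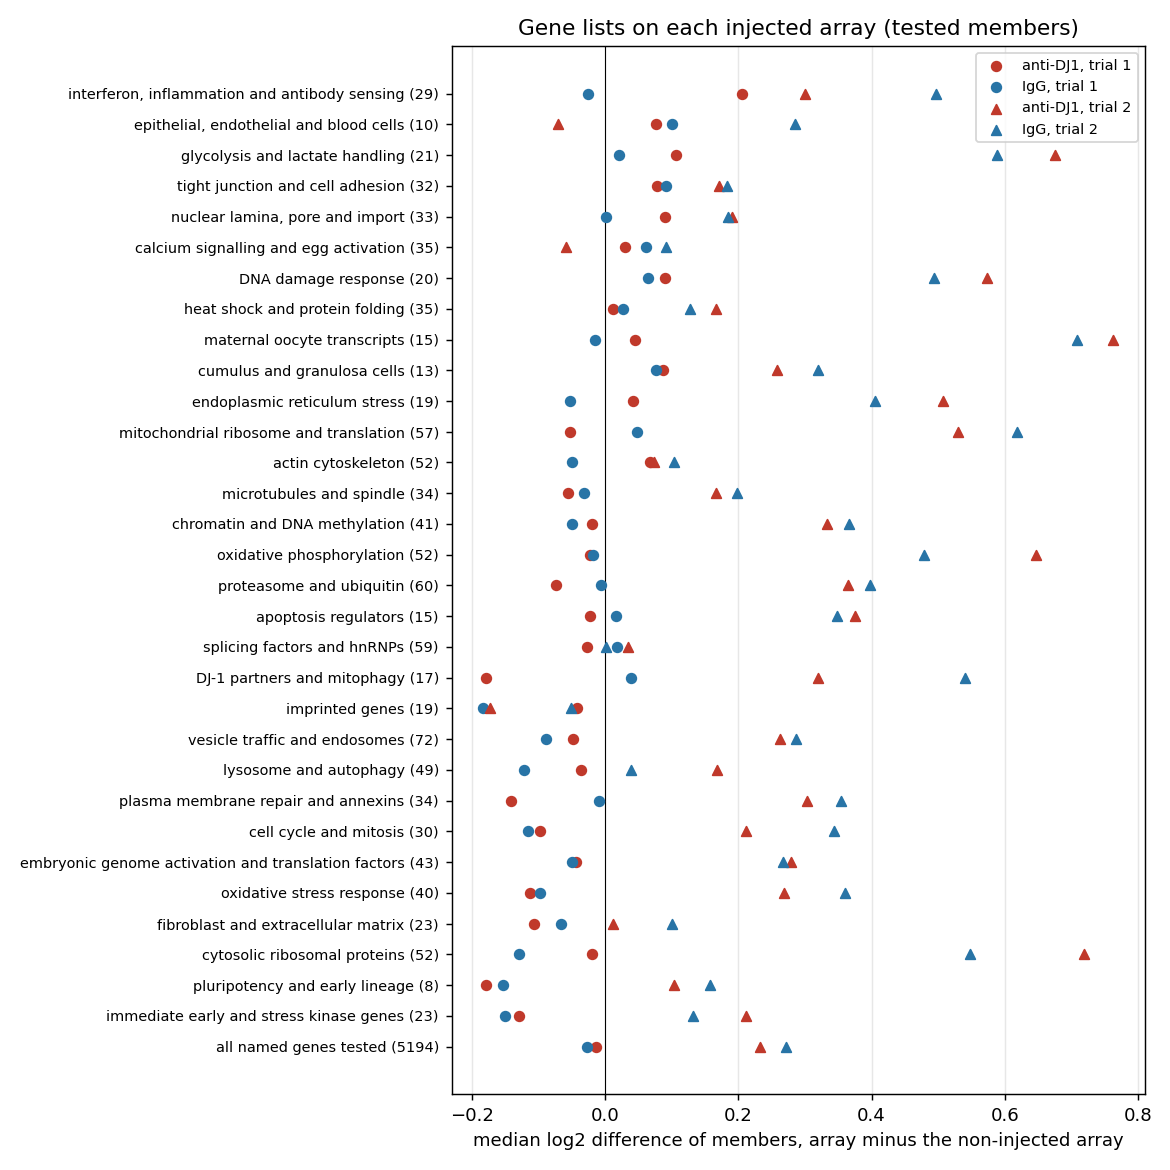
Median log2 difference of the tested members of each gene list on each injected array from the non-injected array, with the number of tested members in brackets and all 5194 named genes in the bottom row. The arrays of trial 1 (circles) lie near 0 for most lists, with all named genes at -0.031 in the fit, and those of trial 2 (triangles) lie mostly to the right.

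More probe sets differed between the trials than between injected and non-injected embryos. Of the 14399 probe sets, 4471 (31.1%) differed between the injected arrays of trial 2 and those of trial 1, 2674 higher and 1797 lower in trial 2, and 87 of the 197 were among them; without IgG replicate 2 the count was 2567. The 2 trials gave opposite directions at 5 of the rises and 7 of the falls, where both trial 2 arrays lay on the other side of the non-injected array. The named ones, picked after their values were seen, were ZKSCAN5 and RPAP3 among the rises and SLC25A6, DNMT1, TSKU and NCF1 among the falls. RPAP3, a chaperone partner of RNA polymerases, had signals of 6634 and 6966 in trial 1, 2821 and 2245 in trial 2 and 3878 in non-injected embryos. For DNMT1, the maintenance DNA methyltransferase, the called probe set had 1363 and 1202, then 4954 and 5728, against 2793, and a brighter one had 31700.3, 31499, 15982 and 21199 against 49658. With a term for the antibody added to the model, 2 probe sets (0.0139%) differed between anti-DJ1 and IgG embryos. For that term 9 of the 197 had an unadjusted p under 0.05, beside 843 of all 14399 tested.

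A count over all 23999 probe sets, with no test, took those at least 2-fold from the non-injected array in the same direction on all 4 injected arrays. It found 1327 (5.53%), of which 809 (3.37%) were higher and 518 (2.16%) lower. Of these, 381 of the higher and 31 of the lower had passed the filter on dim probe sets. Of the 809, 759 had a non-injected signal at or below background, and of the 518, 456 had all 4 injected signals there. Above background on all 5 arrays, 50 were higher and 11 lower, 23 of them among the 197. The 31 named genes of these 61 included, beside CCNA2, SRSF4, GLRX3 and CLDN12, the X-linked transcription factor gene ZFX, with 480.0, 352, 644 and 562 against 109 (1.87, adjusted p = 0.0172), and COPB1, a subunit of the coat of Golgi vesicles, with 345, 337, 579.9 and 533 against 159 (1.08, adjusted p = 0.0442). Both were picked after their values were seen. A brighter COPB1 probe set, with a mean signal of 8924, changed by -0.10 (adjusted p = 0.669). The other ZFX probe sets changed by 2.14 and 0.73 (adjusted p = 0.0172 and 0.356).

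The rises and falls were also set against the donor cells. The median log2 difference between the donor cell array and the non-injected array was 1.10 for the 150 rises, -1.52 for the 47 falls and -0.15 for all tested probe sets. At least 8-fold higher in donor cells were 36 of the 150 rises and 0 of the 47 falls, against 9.45% of all tested probe sets. In the other direction, 11 of the rises and 16 of the falls were 8-fold or more above donor cells in non-injected embryos, against 10.9% of all. The non-injected array enters both differences, so these shares are a description with no test. The summed fibroblast markers were 2797 to 3317 on the injected arrays against 3536, and without SPARC, the brightest of them, 1598 to 1960 against 1614, with 3 of the 4 injected arrays higher.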

How the data were processed

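Transcripts of 6 pig samples were measured on the Affymetrix Porcine Genome Array. Per the labels' protocols, labelled cRNA was made from 50 ng of total RNA by the maker's two-cycle method, with a changed reverse transcription step. The values deposited by the authors are linear probe set intensities, 1 per probe set and array, and the submitters' processing notes name MAS5; the sources used here give no version, scaling target or detection calls. The array's 124 control probe sets were left out of the tests, which leaves 23999; 1 of the 47 lower probe sets carries a reporter name of the array and no pig gene. The platform annotation, which can be old, gave 10069 probe sets a single symbol, 198 several and 13732 none. Only the first kind was named. No sequences or coordinates were used here.

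The scale was log2(signal + 4.50), with the 10th percentile of the embryo arrays added, which understates changes of dim probe sets. The upper 60% by mean, 14399 probe sets of which 6841 had a single symbol (5194 genes), entered limma 3.58.1 in R 4.3.3 (lmFit, eBayes with a mean-variance trend, two-sided, Benjamini-Hochberg over all tested, threshold 0.05) on the 5 embryo arrays. Terms were injected or not and the trial, with 2 residual degrees of freedom and 7.52 added by moderation. Every adjusted p is from this fit or the alternative named beside it; a ± beside a log2 change is the standard error (SE) of the fit. The step was run on simulated data, with the non-injected array drawn to vary as the injected arrays do and no filter applied. Such a run could not check that assumption or the filter. Precision is limited by the number of arrays.

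The trial was a block because the labels describe the second pair as another experiment with its own IgG control; over 14399 probe sets, not independent of each other, anti-DJ1 and IgG arrays of a trial deviated together from their groups (r = 0.593). Replicates of injected embryos were separate pools.

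Named genes were up to 15 rises and up to 15 falls, by size, past the threshold, with a single symbol and all 4 injected arrays on the same side, each gene by its probe set with the highest mean among those past the threshold; from each of 31 gene lists, members past the threshold or otherwise up to 2 with the smallest unadjusted p; and PARK7. Each list took the probe set with the highest mean per gene. The comparison, the lists and the markers were chosen with earlier results of these data known. Alternatives changed the pseudocount, filter, scaling, model terms, trend, arrays and background rule.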

Additional observations from a re-analysis of the deposited data

Results flagged for a closer look

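Among the 4 injected arrays, 2 named genes had an array whose gap to the nearest other exceeded Dixon's critical value at 95%; 75 named probe sets were looked at, and chance alone gives about 1 in 20. CCNA2 had a signal of 195 on the anti-DJ1 array of trial 1, where the other 3 lay between 325 and 337. GLRX3 had a signal of 308 on the anti-DJ1 array of trial 2, where the other 3 lay between 368 and 377. Both arrays still lay above the non-injected array, at 73.1 and 116. The causes were not tested.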

How the results depend on the processing

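The count of 197 probe sets stayed within 1.5 times under 5 of the planned settings that leave out no single array: a pseudocount at the 25th percentile (210), none (208), the upper 40% of probe sets (244), a common 75th percentile (225) and trial 1 arrays only (186, with 84 higher and 102 lower). With only probe sets above background on all 5 arrays tested, an alternative chosen after seeing the data, it was 158. With injected and non-injected embryos weighted equally in the filter, also chosen after seeing the data, it was 125. It was 98 under quantile normalization, 593 with a term for the antibody, 422 on all 6 arrays and 4917 with only the trial 2 injected arrays, which share no trial with the non-injected array. It was 0 with no filter on low values (lowest adjusted p 0.0673) and 0 without the mean-variance trend (0.0828). Without the replicate block for the trial it was also 0 (0.0987), where the difference between trials becomes part of the spread. Leaving out 1 injected array at a time gave 157 to 809. Of the probe sets counted in the 5 settings named first, 180, 192, 142, 196 and 110, in that order, were among the 197. The count between trials, 4471, was 1786 without the trend and ran from 2567 to 4399 with 1 array left out. The count of probe sets 2-fold apart on every injected array, 1327, was 1332 after quantile normalization, 2125 with no pseudocount, 2901 at 1.5-fold, 231 at 4-fold, 532 with background exceeded on at least 1 side and 61 with it exceeded on all 5 arrays.

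Of the 46 named genes past the threshold, all missed it under the 3 settings that gave a count of 0, 20 did under quantile normalization, and 5 did with the filter weighted equally, where 11 others were not tested. With trial 1 arrays only, 14 of the 46 missed it. With only the trial 2 arrays, 3 uncalled genes had the opposite sign: AKT1 0.80, GATA4 0.77 and PARK7 1.28. Of the list medians under all settings, 515 stayed within the spread between arrays and 43 moved, most of them with only trial 2 arrays or no replicate block. The causes were not tested. Dim probe sets are limited by background.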
